A study of Homo sapiens with 4 samples.

Results

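Retinoid metabolism and retinoic acid receptors are described here through 10 genes, ALDH1A1, ALDH1A2, ALDH1A3, RDH10, DHRS3, CRABP2, CYP26B1, RARA, RARG and RXRA, out of 58735 genes in the deposited tables. They were taken by name, from retinaldehyde dehydrogenases, reductases, a binding protein, a degrading enzyme and receptors, with the difference between the groups already known. Their values and their calls between the groups are therefore a description, and no p-value is given for them. The 4 RNA-seq libraries came from HT8 cells, a line labelled as colon cancer. There were 2 libraries whose genotype is labelled PPDPF knockdown (HT8-cas1) and 2 labelled control (HT8), with no treatment, time or clone given.

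Retinol is oxidised reversibly to retinaldehyde by enzymes such as RDH10, and reductases such as DHRS3 turn retinaldehyde back into retinol. The ALDH1A enzymes then oxidise retinaldehyde to retinoic acid, a step that is not reversed. CRABP2 carries retinoic acid to the nucleus, CYP26 enzymes break it down, and the remaining signal acts through heterodimers of a retinoic acid receptor (RAR) and a retinoid X receptor (RXR). In the colon, ALDH1 activity is known as a marker of crypt stem cells and of stem-like tumour cells.

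The targeted gene, PPDPF, had 281 and 283 FPKM (reads scaled to exon length and to library depth) in the libraries labelled knockdown, against 237 and 266 FPKM in the control libraries, and it was not lower there, so the group is called by its label throughout. Total reads in genes ranged from 17069628 to 19479906 per library, and within each group the 2 libraries were further apart than counting noise allows. Nothing in the labels says that they came from separate cultures, so the spread measured here may be technical. Of 12 colon epithelial markers, 11 had a mean of at least 1 FPKM, 6 rose, 1 fell, and GPA33 was between 0.0184 and 0.191 FPKM. Their summed level was 3223 and 3200 FPKM in the libraries labelled knockdown against 2682 and 2874 FPKM in control, and its part in the results was not tested. Most of this sum came from KRT8, KRT18 and KRT19, with KRT8 at 1121 and 1081 FPKM against 917 and 977 FPKM in control. The sum hides KRT20, which rose with the largest fold change of the 11 (log2 fold change 1.31). It had 2.61 and 2.94 FPKM in the libraries labelled knockdown against 0.339 and 0.717 FPKM in control. CDH1 was the marker that fell. The 8 fibroblast markers summed to 0.377 and 0.504 FPKM in the libraries labelled knockdown and 0.640 and 0.723 FPKM in control, with 4 of them at 0 throughout. The 8 immune markers summed to 1.03 and 1.03 FPKM against 1.78 and 1.86 FPKM in control, with 5 at 0 throughout, PTPRC among them. Most of the immune sum was a single gene, CD14, which fell. It had 0.860 and 0.907 FPKM in the libraries labelled knockdown against 1.57 and 1.86 FPKM in control. The 5 endothelial markers summed to 0.185 and 0.108 FPKM against 0.0456 and 0.121 FPKM in control. In such bulk RNA, fewer cells of a type and less RNA per cell cannot be told apart.

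The members that stood furthest apart were the isozymes ALDH1A1 and ALDH1A3, so the sequence near their starts is shown, beside that of ALDH1A2, which was close to 0. Windows of 250 bases before each RefSeq start (GRCh38.p14) were matched for 9 of the 10 genes, all except RDH10. All 250 bases of the ALDH1A2 and ALDH1A3 windows shown lie within exons annotated in GENCODE 29, counted over any gene and either strand, against 3 bases of the ALDH1A1 window. Each of the ALDH1A genes had a CCAAT box, in capitals in the 30 bases below, in one window: at -74 to -70 from the start in ALDH1A1, -62 to -58 in ALDH1A2 and -71 to -67 in ALDH1A3. CCAAT, read on both strands, occurred in 4 of the 15 windows of the 9 genes and in 32.0% of all 35116 windows of this length. The matches lie at chr9:72953111-72953140 (minus strand), chr15:58065757-58065786 (minus strand) and chr15:100879747-100879776 (plus strand).
ALDH1A1: tgagtttgttcatCCAATcgtatccgagta
ALDH1A2: tcggccctcacgtCCAATaagaagagcccc
ALDH1A3: tccggtcccgcagCCAATtaggcggccccc

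Around these boxes the windows differed in base composition. G and C made up 38.4% of the ALDH1A1 window and 82.4% of the ALDH1A3 window, against a median of 58% over all windows. The ALDH1A3 window held the GC box GGGCGG 6 times over both strands, with one overlapping pair, and the ALDH1A1 window did not hold it, while 42.6% of all windows did. The receptors are known to bind direct repeats of a core motif. No direct repeat of AGGTCA, of its variant AGTTCA, of its variant GGGTCA or of its variant GGTTCA, in any pairing, spaced by 1, 2 or 5 bases on either strand, was found in the 15 windows, and such repeats were in 0.0968%, 0.0313% and 0.0740% of all windows. The upstream bases of ALDH1A1, the gene with the lowest fold change of the 10, are shown at chr9:72953064-72953303 (minus strand), without the 10 bases next to the start and with the CCAAT box in capitals.
ALDH1A1 upstream: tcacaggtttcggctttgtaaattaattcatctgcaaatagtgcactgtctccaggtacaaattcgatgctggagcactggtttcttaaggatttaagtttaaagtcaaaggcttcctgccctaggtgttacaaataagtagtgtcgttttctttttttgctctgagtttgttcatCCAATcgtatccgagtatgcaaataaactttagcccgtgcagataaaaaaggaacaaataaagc

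Of the 10 genes, 9 passed the filter of a mean of at least 1 FPKM over the 4 libraries, and ALDH1A2 lay under it. In the limma fit over all 12777 genes tested, 3 of the 9 rose (ALDH1A3, DHRS3 and RXRA) and 4 fell (ALDH1A1, RDH10, CRABP2 and RARG), at a Benjamini-Hochberg adjusted p under 0.05. CYP26B1 and RARA were not called. Over all genes tested, 29.9% were called, 16.8% as higher and 13.0% as lower. Since the members were chosen with this contrast known, nothing is read from their count. Both libraries labelled knockdown lay above both controls for 4 of the 9 and below them for 4, as for 35.9% and 33.8% of all genes tested, or 69.7% in either direction.

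**Figure D1:**
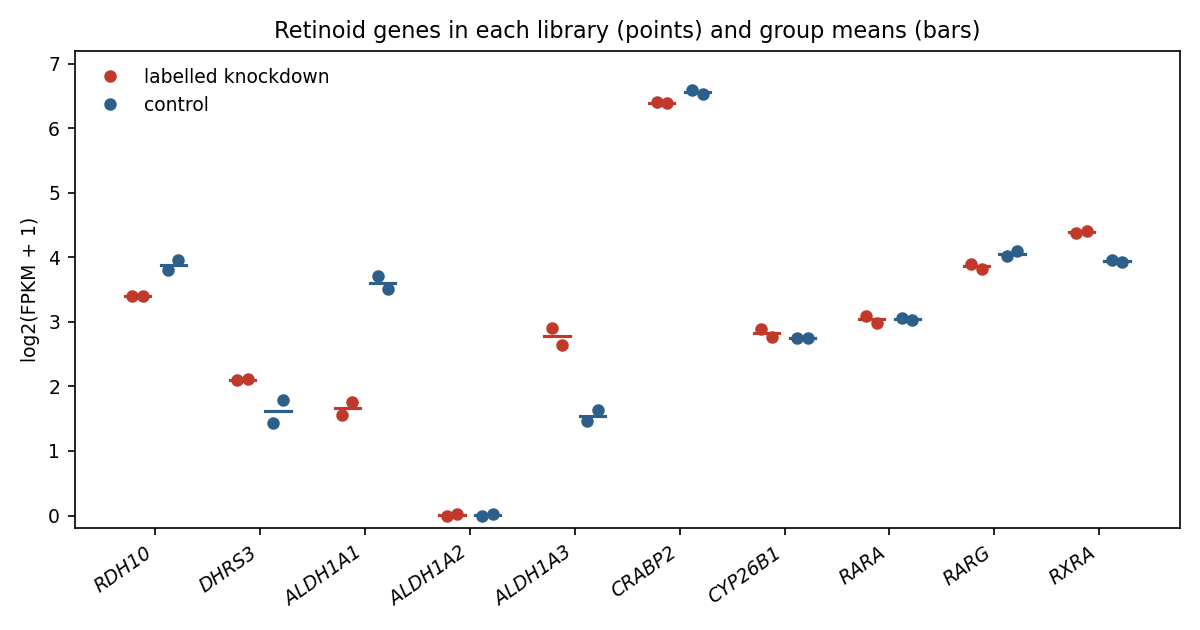
Levels of the 10 genes as log2(FPKM + 1) in each library (points, 2 per group) with group means (bars), ordered by role, with the libraries labelled knockdown left of control for each gene. ALDH1A1 and ALDH1A3 are furthest apart between groups, in opposite directions, while CRABP2 is highest and ALDH1A2 is at or near 0 in all 4 libraries.

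RDH10, a retinol dehydrogenase (chromosome 8, 73294612 to 73325281 on GRCh38), fell. It had 9.51 and 9.57 FPKM in the libraries labelled knockdown, against 13.0 and 14.6 FPKM in control. The groups did not overlap, and the controls differed from each other more than the other pair. The group means were 9.54 ± 0.0416 and 13.8 ± 1.13 FPKM (SD, n = 2 each), and the log2 fold change of FPKM + 1 was -0.49 (SE 0.06). The span of RDH10 overlaps that of RPL7, a ribosomal protein gene on the other strand, which had 273 and 268 FPKM in the libraries labelled knockdown and 259 and 250 FPKM in control. Without a known strand setting, reads of overlapping genes cannot be told apart, and the part of RPL7 in the values of RDH10 was not tested.

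DHRS3, the reductase that returns retinaldehyde to retinol (chromosome 1, 12567910 to 12617731), rose. It had 3.28 and 3.32 FPKM, from 172 and 171 reads, in the libraries labelled knockdown. In control it had 1.70 and 2.46 FPKM, from 91 and 147 reads. The control libraries differed from each other 1.45-fold, close to the ratio of 1.58 between the group means. The log2 fold change was 0.49 (SE 0.14), and the call was lost in 7 of 10 alternative settings, among them each fit without 1 library except that without control replicate 2. RDH10 had 2.90 and 2.88 times the FPKM of DHRS3 in the libraries labelled knockdown, against 7.61 and 5.92 times in control.

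Among the retinaldehyde dehydrogenases, ALDH1A1 fell and ALDH1A3 rose. ALDH1A1 (chromosome 9, 72900662 to 73080442) is the isozyme whose longer upstream sequence is shown above. It had 1.93 and 2.40 FPKM in the libraries labelled knockdown, from 95 and 116 reads, against 12.1 and 10.4 FPKM in control, from 606 and 581 reads. Both libraries labelled knockdown lay far below both controls, and the libraries within a group differed by 1.24-fold and 1.17-fold. The means were 2.17 ± 0.332 and 11.2 ± 1.22 FPKM (SD, n = 2 each), a ratio of 0.193. The log2 fold change of FPKM + 1 was -1.95 (SE 0.11), the rank 6 from the lowest among 12777 genes.

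ALDH1A3 (chromosome 15, 100877714 to 100916626) encodes the isozyme known in other epithelia such as breast as a main source of ALDH activity. It had 6.49 and 5.27 FPKM in the libraries labelled knockdown, from 647 and 516 reads, against 1.76 and 2.10 FPKM in control, from 179 and 238 reads. The groups did not overlap, and each group's libraries differed by about as much as those of ALDH1A1 did, 1.23-fold and 1.19-fold. The means were 5.88 ± 0.865 and 1.93 ± 0.237 FPKM (SD, n = 2 each), a ratio of 3.05. The log2 fold change of FPKM + 1 was 1.23 (SE 0.12), the rank 54 from the highest. The antisense gene AC015712.2 within its span had 0.674 and 0.573 FPKM in the libraries labelled knockdown and 0.527 and 0.479 FPKM in control. Another antisense gene there, AC015712.7, was higher in the libraries labelled knockdown, with 0.456 and 0.557 FPKM against 0.179 and 0.240 FPKM in control. The part of these overlapping genes in the values of ALDH1A3 was not tested.

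ALDH1A2, the isozyme known as the main source of retinoic acid in the early vertebrate embryo (chromosome 15, 57953424 to 58497866), was barely detected. It had 0 and 2 reads in the libraries labelled knockdown, and 0 and 3 reads in control. No fold change is given at this depth. ALDH8A1, a related enzyme that oxidises 9-cis retinaldehyde, also lay under the filter, with 2 and 5 reads in the libraries labelled knockdown against 18 and 22 in control.

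The opposite shifts left a smaller and differently composed pool of ALDH1A transcripts, as measured by FPKM. The summed FPKM of ALDH1A1, ALDH1A2 and ALDH1A3 was 8.43 and 7.69 in the libraries labelled knockdown and 13.9 and 12.5 in control, a ratio of the means of 0.612. ALDH1A1 made up 22.9% and 31.2% of the sum in the libraries labelled knockdown, against 87.3% and 83.1% in control. ALDH1A3 made up 77.1% and 68.6%, against 12.7% and 16.8% in control. The transcript with the higher FPKM was therefore that of ALDH1A3 in both libraries labelled knockdown and that of ALDH1A1 in both controls. Such shares depend on the exon lengths behind FPKM, 2849 bases for ALDH1A1 and 5772 bases for ALDH1A3, and protein was not measured. With 2 libraries against 2, an exact test could not pass a threshold of 0.05, and none was made on these sums.

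**Figure D2:**
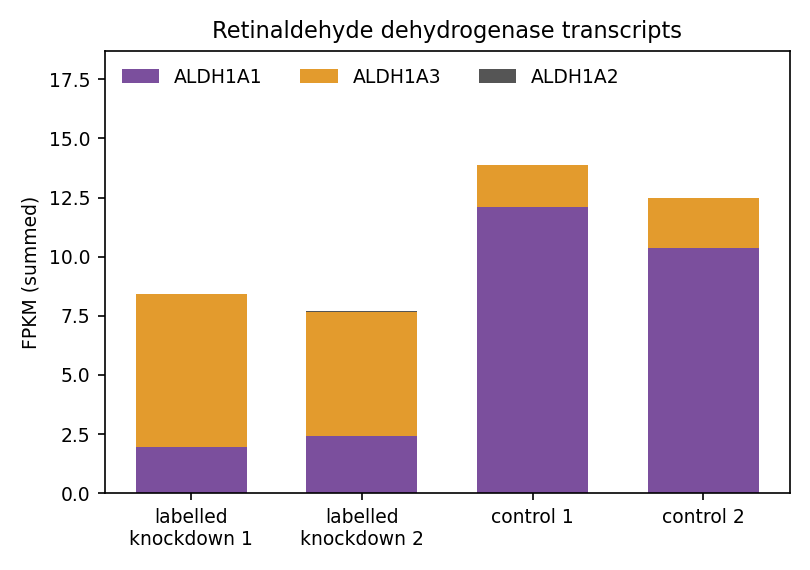
Summed FPKM of ALDH1A1, ALDH1A3 and ALDH1A2 in each library, stacked from 0, with the libraries labelled knockdown on the left. The bars reach 8.43 and 7.69 FPKM in the libraries labelled knockdown and 13.9 and 12.5 FPKM in control, and the ALDH1A3 part is the larger one only in the libraries labelled knockdown.

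CRABP2, the cellular retinoic acid binding protein (chromosome 1, 156699606 to 156705816), was the most abundant of the 10 genes and fell by a small amount. It had 83.8 and 82.9 FPKM in the libraries labelled knockdown, against 95.5 and 91.8 FPKM in control. The groups did not overlap, and the log2 fold change was -0.17 (SE 0.03). The call was lost in 4 of 11 alternatives, among them the fits without control replicate 1 or without either library labelled knockdown. CRABP1 was listed at 0 in all 4 libraries.

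FABP5, a fatty acid binding protein known to carry retinoic acid to the receptor PPARD, fell. It had 6.44 and 6.84 FPKM in the libraries labelled knockdown, against 17.9 and 15.7 FPKM in control (log2 fold change -1.22, limma adjusted p = 0.00131). CRABP2 had 13.0 and 12.1 times the FPKM of FABP5 in the libraries labelled knockdown, against 5.34 and 5.84 times in control. The pseudogene FABP5P7, which can share reads with FABP5, had 4.15 and 1.602 FPKM against 13.2 and 12.4 FPKM in control, so the level of FABP5 is uncertain.

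CYP26B1, the cytochrome P450 that hydroxylates retinoic acid (chromosome 2, 72129238 to 72148038), was the one enzyme of its family above the filter. It had 6.42 and 5.83 FPKM in the libraries labelled knockdown, against 5.74 and 5.69 FPKM in control. The groups were separated by less than the difference between the libraries labelled knockdown, and the gene was not called (log2 fold change 0.09, SE 0.06). CYP26A1, the family member known as strongly induced by retinoic acid, had 0 and 0 reads in the libraries labelled knockdown and 1 and 0 in control, and CYP26C1 had the same.

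RXRA, the partner that RARs share with other nuclear receptors (chromosome 9, 134317098 to 134440585), rose, while the RARs did not. RXRA had 19.8 and 20.3 FPKM in the libraries labelled knockdown, against 14.6 and 14.2 FPKM in control. The libraries of a group differed by 1.02-fold and 1.03-fold, far less than the groups, and the log2 fold change was 0.45 (SE 0.04). RXRB, the other expressed member of the family, had 11.4 and 10.5 FPKM in the libraries labelled knockdown against 8.76 and 8.94 FPKM in control. RXRB rose (log2 fold change 0.28, SE 0.05, limma adjusted p = 0.0196), and its call was lost in 4 of 11 alternatives, 3 of which left out 1 library (control replicate 1, control replicate 2 or knockdown replicate 1, with limma adjusted p = 0.0885, 0.0709 and 0.0782, and 0.00329 to 0.0885 over all alternatives). RXRG had at most 3 reads in any library.

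RARG, the receptor best known from epithelia such as skin (chromosome 12, 53210567 to 53232980), fell slightly. It had 14.0 and 13.1 FPKM in the libraries labelled knockdown, against 15.2 and 16.2 FPKM in control. The groups did not overlap, and the log2 fold change was -0.20 (SE 0.05). The adjusted p of RARG lay at the edge of the threshold, and the call was lost whichever library was left out. RARA, the receptor gene rearranged in acute promyelocytic leukaemia (chromosome 17, 40309192 to 40357643), had 7.53 and 6.94 FPKM against 7.31 and 7.16 FPKM in control. Its control libraries lay between the libraries labelled knockdown, and its group means were 7.24 ± 0.416 and 7.24 ± 0.103 FPKM (SD, n = 2 each). RARB, a classical target of retinoic acid as well as a receptor, had at most 2 reads in any library.

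The receptor families thus moved unequally. The summed FPKM of the RXR genes was 31.3 and 30.8 in the libraries labelled knockdown, against 23.4 and 23.1 in control. For the RAR genes the sum was 21.5 and 20.04 in the libraries labelled knockdown, against 22.5 and 23.4 in control. The RXR sum was 1.45 and 1.54 times the RAR sum in the libraries labelled knockdown, against 1.04 and 0.989 times in control. RARG made up 65.0% and 65.3% of the RAR sum, against 67.5% and 69.3% in control, and RXRA made up 63.5% and 65.7% of the RXR sum, against 62.3% and 61.3% in control.

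**Figure D3:**
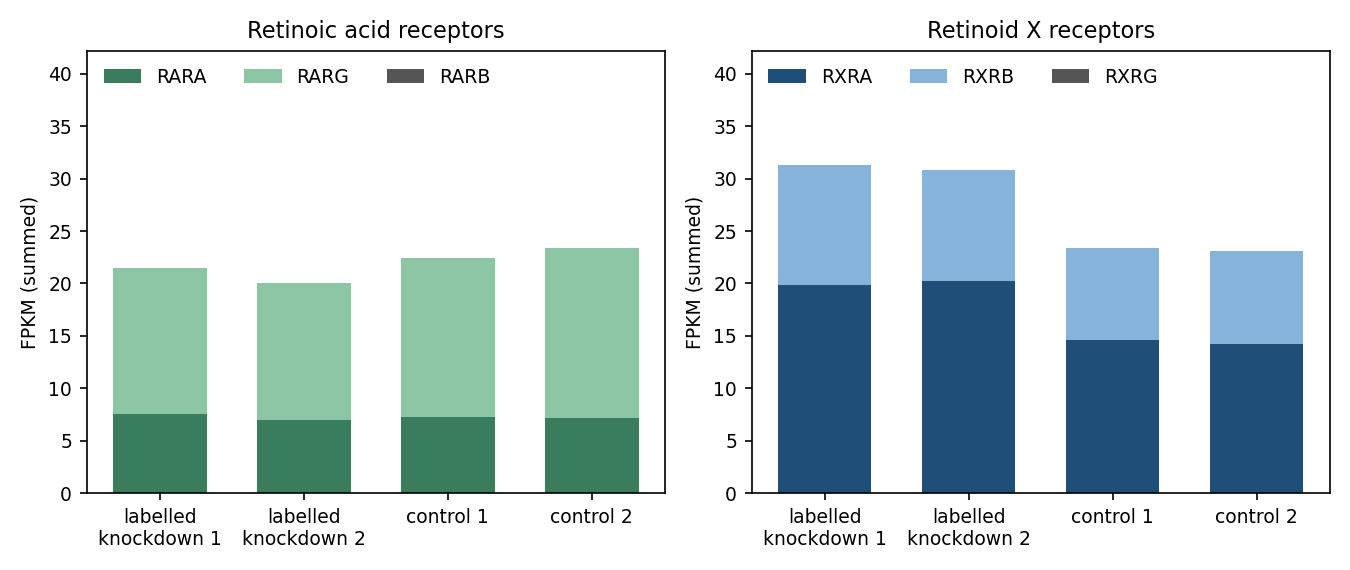
Summed FPKM of the RAR genes (left panel) and RXR genes (right panel) in each library, stacked from 0 on the same scale, with the libraries labelled knockdown on the left of each panel. The RXR bars reach 31.3 and 30.8 FPKM in the libraries labelled knockdown and 23.4 and 23.1 FPKM in control, while RARB and RXRG are too low to see.

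The order of the levels changed at the ALDH1A genes and the receptors. In the libraries labelled knockdown the order by mean FPKM was CRABP2, RXRA, RARG, RDH10, RARA, CYP26B1, ALDH1A3, DHRS3, ALDH1A1 and ALDH1A2. Of these neighbours, only CYP26B1 and ALDH1A3 overlapped, with 5.83 to 6.42 and 5.27 to 6.49 FPKM. In control the order was CRABP2, RARG, RXRA, RDH10, ALDH1A1, RARA, CYP26B1, DHRS3, ALDH1A3 and ALDH1A2. There RXRA and RDH10 overlapped, and so did DHRS3 and ALDH1A3, with 1.70 to 2.46 and 1.76 to 2.10 FPKM. ALDH1A1 thus had rank 9 in the libraries labelled knockdown and rank 5 in control.

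Genes beside the members had small median shifts. The median log2 fold change of the nearest tested genes, up to 10 on each side, lay between -0.10 and 0.10 for the 10 genes. It was 0.02 around ALDH1A1, 0.07 around ALDH1A3, -0.02 around RDH10 and 0.01 around RXRA. Over all genes tested the median was 0.00.

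The wider pathway held 89 other genes in 9 lists, of which 53 passed the filter, 11 rose and 11 fell. That is 41.5% called, beside 29.9% over all genes tested, and their median log2 fold change was -0.03. The lists were written with earlier results of these data known, so nothing is read from this share. For uptake and storage, 3 of 12 genes were tested and 1 rose, with a median of 0.03. DGAT1, an acyltransferase that can esterify retinol besides its role in triglyceride synthesis, had 22.3 and 23.0 FPKM in the libraries labelled knockdown against 15.9 and 16.0 FPKM in control (log2 fold change 0.48, limma adjusted p = 0.00203). The tested genes beside it on chromosome 8 had a median log2 fold change of 0.60, and the part of this stretch in its rise was not tested. RBP5, a cellular retinol binding protein, and SCARB1, a lipoprotein and carotenoid receptor, were not called, with log2 fold changes of -0.20 and 0.03 (limma adjusted p = 0.228 and 0.693). LRAT, which esterifies retinol, was listed at 0 in all 4 libraries, and STRA6, the retinol uptake receptor, had at most 4 reads.

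Among 17 other enzymes that interconvert retinol and retinaldehyde, 7 were tested, 0 rose and 2 fell, with a median log2 fold change of -0.08. RDH11, a retinaldehyde reductase of the endoplasmic reticulum, was more abundant than RDH10 in all 4 libraries. It had 12.5 and 12.8 FPKM in the libraries labelled knockdown, against 20.8 and 20.9 FPKM in control (log2 fold change -0.68, SE 0.04, limma adjusted p = 0.00118), and it fell in each alternative run. RDH14 fell by 0.20 on the log2 scale (limma adjusted p = 0.0313), a call lost whichever library was left out (0.0689 to 0.123). DHRS4, which has close paralogs, and RDH13, a mitochondrial enzyme, were not called, with log2 fold changes of -0.23 and 0.20 (limma adjusted p = 0.0630 and 0.151). DHRS4 was called as lower with a mean of at least 5 FPKM and RDH13 as higher with limma-voom (adjusted p = 0.0434 and 0.0306, in ranges of 0.0434 to 0.198 and 0.0306 to 0.450). The alcohol dehydrogenases ADH1A, ADH1B and ADH7 were listed at 0 throughout. ADH1C lay under the filter, with 5 and 2 reads in the libraries labelled knockdown against 15 and 29 in control. DHRS9, also under it, went the other way, with 18 and 11 reads against 4 and 0 in control.

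Of 11 coregulators of the receptors tested, 1 rose and 1 fell, with a median log2 fold change of -0.03. NRIP1, a corepressor that binds liganded receptors, fell by 0.20 on the log2 scale (limma adjusted p = 0.0417), a call lost whichever library was left out (0.0996 to 0.168). The acetyltransferases CREBBP and EP300 and the coactivator NCOA3 were not called, with log2 fold changes of -0.17, -0.09 and 0.22 (limma adjusted p = 0.0554, 0.130 and 0.0893). All 3 were called with limma-voom (adjusted p = 0.000605, 0.00881 and 0.00770), CREBBP also with quantile normalization and with a mean of at least 5 FPKM, and NCOA3 also without knockdown replicate 1. Over all alternatives the limma adjusted p was 0.000605 to 0.210 for CREBBP, 0.00881 to 0.379 for EP300 and 0.00770 to 0.248 for NCOA3.

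Other nuclear receptors that pair with RXRs numbered 13, of which 9 were tested, 3 rose and 0 fell, with a median log2 fold change of 0.12. PPARG, the adipogenic receptor that is also expressed in colon epithelium, had 5.14 and 5.60 FPKM in the libraries labelled knockdown against 2.82 and 3.40 FPKM in control (log2 fold change 0.63, limma adjusted p = 0.00905). Its call was lost with no filter on low values, where limma gave an adjusted p of 0.0545 (7.39e-06 to 0.0545 over its alternatives). NR4A1, an immediate early receptor also called NUR77, had 6.71 and 6.77 FPKM against 4.05 and 4.62 FPKM in control (log2 fold change 0.54, limma adjusted p = 0.00656). NR1H3, the oxysterol receptor LXR alpha, rose by 0.23 on the log2 scale (limma adjusted p = 0.0308), a call lost whichever library was left out (0.0800 to 0.130). NR1H2, or LXR beta, was not called (log2 fold change 0.20, limma adjusted p = 0.0580), but it was with limma-voom and with a mean of at least 5 FPKM (0.0161 and 0.0285, in a range of 0.0161 to 0.207).

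Genes known to be induced by retinoic acid did not move one way. Of 19 outside the 10, 9 were tested, 2 rose and 2 fell, with a median log2 fold change of -0.12, and of the members also on this list, DHRS3 rose, CRABP2 fell and CYP26B1 was not called. GPRC5A, an orphan receptor first known as a retinoic acid induced gene, had 102 and 95.1 FPKM in the libraries labelled knockdown against 54.3 and 59.7 FPKM in control (log2 fold change 0.78, limma adjusted p = 0.00191). CDX1, an intestinal homeobox gene that is a retinoic acid target in the mouse, had 6.03 and 5.94 FPKM against 3.17 and 3.73 FPKM in control (log2 fold change 0.65, limma adjusted p = 0.00556). RARRES3, a phospholipase that is also induced by interferon, had 18.2 and 21.9 FPKM against 50.2 and 59.7 FPKM in control (log2 fold change -1.41, limma adjusted p = 0.00212). NRIP1, given above, was the other gene that fell.

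Among 15 other aldehyde dehydrogenases, 13 were tested, 3 rose and 6 fell, with a median log2 fold change of -0.15. ALDH3A1, which detoxifies aldehydes of lipid peroxidation and was the most abundant of them, had 139 and 142 FPKM in the libraries labelled knockdown against 90.0 and 88.3 FPKM in control (log2 fold change 0.65, limma adjusted p = 0.000893). ALDH18A1, which makes a precursor of proline, had 22.5 and 25.1 FPKM against 34.8 and 35.2 FPKM in control (log2 fold change -0.54, limma adjusted p = 0.00391). ALDH5A1, of GABA breakdown, and ALDH6A1, of valine breakdown, fell with log2 fold changes of -0.46 and -0.41 (limma adjusted p = 0.00800 and 0.00920). Leaving out control replicate 2 ended the call of ALDH6A1, with limma adjusted p = 0.0508 in a range of 2.36e-06 to 0.0508 over its alternatives. ALDH1A1 and ALDH1A3 had larger fold changes in size than each of these 13.

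**Figure D4:**
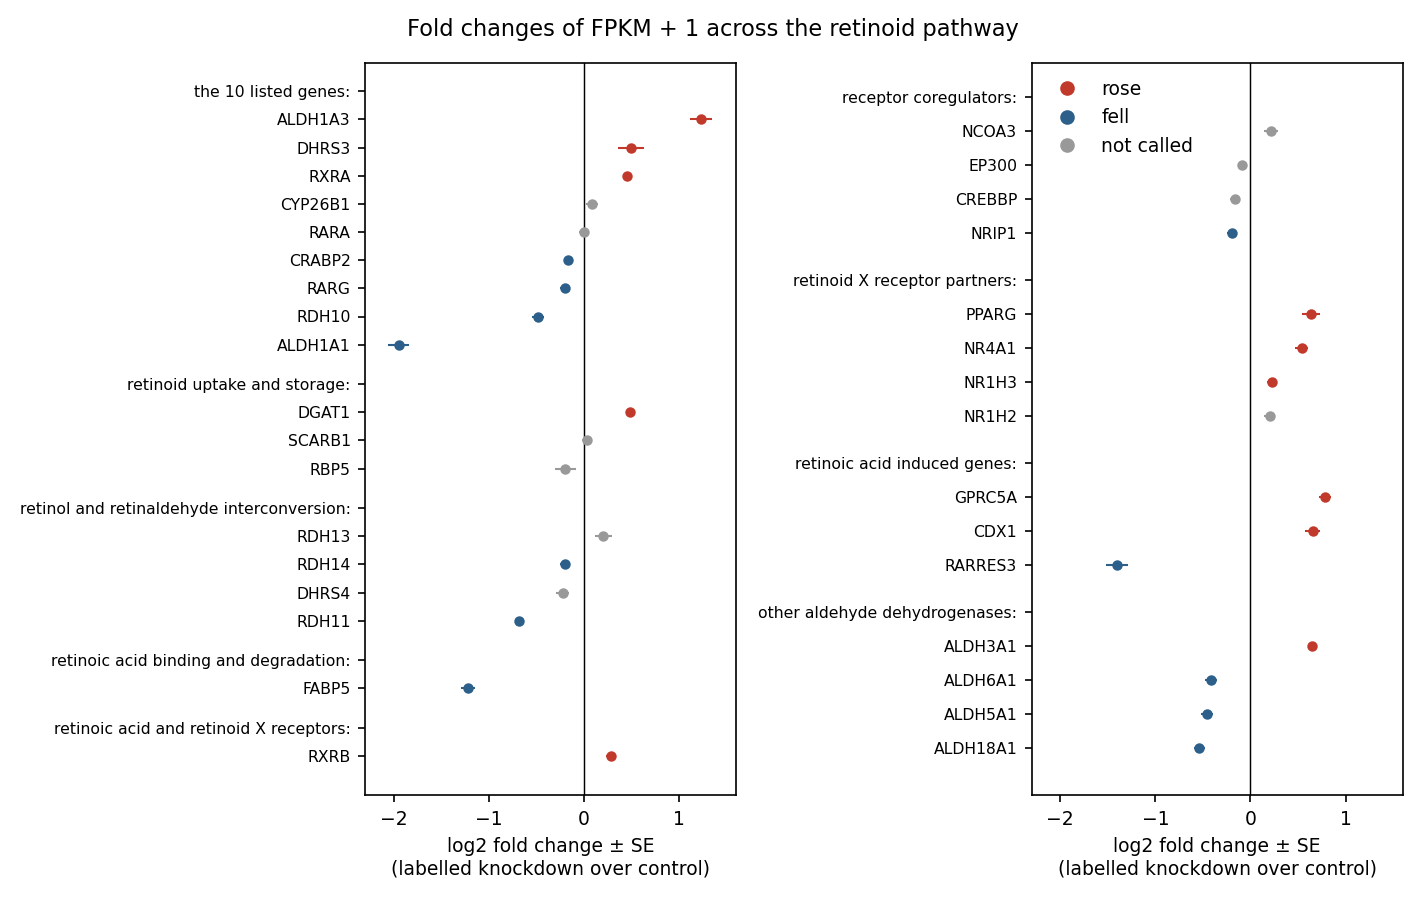
Log2 fold changes of FPKM + 1 (libraries labelled knockdown over control, n = 2 each) with limma standard errors as bars for the 9 tested members and 24 other genes named in the text, grouped by list and coloured by call. ALDH1A1, RARRES3 and FABP5 lie furthest to the left and ALDH1A3 furthest to the right, and NRIP1, which belongs to a pair of lists, is drawn once.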

How the data were processed

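RNA-seq of 4 libraries was analysed, 2 labelled PPDPF knockdown and 2 labelled control by genotype. The authors deposited FPKM per gene in 1 table per library. HISAT2 2.0.5 and hg18 are named, per the submitters' processing notes. For the counting tool, its annotation and its strand setting, the sources used here give nothing. All 58735 gene IDs matched GENCODE 29, so symbols and coordinates are on GRCh38. FPKM times the union exon length gave whole reads for 100% of values above 0 (within 0.01 of a read). The tested members had between 91 and 3810 reads per library.

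The test was limma-trend (limma 3.58.1 in R 4.3.3) on log2(FPKM + 1) for genes averaging 1 FPKM or more, with group as the only term and 2 residual degrees of freedom. P-values were two-sided and Benjamini-Hochberg adjusted over all genes tested, with calls under 0.05. The pseudocount makes fold changes of low genes too small. The fit was tested on simulated data. The alternatives were quantile normalization, other filters, a pseudocount of 0.1, limma-voom on recovered reads, a replicate block and each library left out. Scaling to non-mitochondrial reads was chosen after seeing the data.

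The members and lists were chosen with earlier results of these data known. Named were all 10 members, PPDPF and, per list, up to 4 other tested genes with the smallest p plus the most abundant one. Other genes named, such as those near 0 and those sharing reads, were chosen after their values were seen. Some genes that the rule names are not reported here. Sequences are from RefSeq (GRCh38.p14). Figures used matplotlib 3.10.9.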

Additional observations from a re-analysis of the deposited data

How the results depend on the processing

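ALDH1A1, ALDH1A3, RDH10 and RXRA kept their direction and their call in each of the alternatives in which they were tested (11, 10, 11 and 11). DHRS3 and RARG lost theirs in 7 of 10 and 7 of 11, and CRABP2 in 4 of 11, without a change of direction. The log2 fold change of RARA was near 0 and turned to 0.012 without control replicate 1 and to 0.051 without knockdown replicate 2, a range of -0.052 to 0.051 with 1 library left out. That of SCARB1 turned to -0.024 without knockdown replicate 2, with a range of -0.024 to 0.083. PPDPF was not called in the main fit (log2 fold change 0.16) but was called as higher in 3 of 11 alternatives. These were limma-voom and a mean of at least 5 FPKM (limma adjusted p = 0.0105 and 0.0459) and the fit without control replicate 2 (log2 fold change 0.25). Leaving out 1 library gave 2 to 3 risen and 2 to 3 fallen members, 7 to 9 risen and 6 to 7 fallen genes of the wider lists, and 1131 to 1318 risen and 753 to 926 fallen genes overall. With no filter on low values 1134 genes rose and 734 fell, with 2 members and 7 wider genes among the fallen and 6 wider genes among the risen. With a mean FPKM of at least 5, 1 member rose, since ALDH1A3 and DHRS3 fell under the filter. With limma-voom 2709 genes fell. The deviations of same-numbered libraries had a correlation of -0.00206 over all genes tested. This value cannot show whether the libraries were prepared in pairs. The replicate block gave 2 risen and 3 fallen members, and 1899 risen and 1405 fallen genes among all tested. The ratio of the ALDH1A sums was 0.581 to 0.645 with 1 library left out, and the difference in the share of ALDH1A1 was -62.2 to -53.9 percentage points. A group left with 1 library was assumed to vary like the other group. With 2 libraries a group, small changes such as those of RARG and CRABP2 could lose their call while the change itself stayed alike. Their log2 fold changes were -0.24 to -0.15 and -0.20 to -0.14 over all alternatives. Leaving out 1 library also left fewer residual degrees of freedom, so a lost call does not show that a single library carried the change.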
